A study of Mus musculus with 4 samples.

Results

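The HBO1 histone acetyltransferase complex was examined through the genes of its subunits in mouse CD4 T cells that had been given extra *Tox*. The 10 genes were taken by symbol from the known composition of the complex, and all 10 were present among the 24369 genes listed in each library. They were *Kat7*, the catalytic subunit, also called HBO1, the scaffold genes *Brpf1*, *Brd1* (also BRPF2), *Brpf3*, *Jade1*, *Jade2* and *Jade3*, the reader genes *Ing4* and *Ing5*, and the small subunit gene *Meaf6*. The rule used no expression value, but the members were chosen with earlier results of these data known.

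KAT7 is an acetyltransferase of the MYST family. It is brought to chromatin by 1 scaffold at a time: with a BRPF scaffold it acetylates mainly the tail of histone H3, and with a JADE scaffold mainly the tail of histone H4. ING4 and ING5 bind trimethylated lysine at promoters through a PHD finger, and MEAF6 completes the core. The complex is known for its roles in replication licensing and in gene activation, and TOX protein has been described as a partner of HBO1 in CD8 T cells.

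RNA-seq had been carried out on cultured CD4 T cells grown from naïve splenic cells of WT C57BL/6 mice, with 2 libraries in each of 2 groups. All cells had been activated on anti-CD3 coated plates in medium holding anti-CD28 and human IL-2, with no polarizing cytokine, transduced after 2 days with retrovirus, restimulated through CD3 on day 5 and sorted as CD4 GFP+ cells. EV RV cells carried the MSCV-IRES-eGFP empty vector and Tox RV cells carried MSCV-Tox-IRES-eGFP, so both groups held GFP and viral sequence and only the latter held ectopic *Tox* under viral control. The treatment label names anti-CD28 again where the methods name IL-2, the age of the mice was not given in the sources used here, and each group represented 2 mice, without a statement on whether equal replicate numbers came from the same mouse.

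By summed expected counts, the depth was 46989997 for EV RV replicate 1, 74548723 for EV RV replicate 2, 61442264 for Tox RV replicate 1 and 49012254 for Tox RV replicate 2. *Tox* itself, the check of the labels, stood at 7.22 and 3.37 TPM (transcripts per 1000000 transcripts) in EV RV, against 69.08 and 56.87 TPM in Tox RV, a log2 difference of 3.68 (SE 0.38) with an edgeR quasi-likelihood adjusted p of 0.490. The call of *Tox* depended on the fit: its adjusted p was 3.79e-24 in DESeq2, 1.3e-07 in edgeR without the filter on low counts, 1.07e-05 with the replicate block, and from 5.24e-16 to 0.0385 with 1 library left out. Here and in all pairs of values that follow, replicate 1 comes first. EV RV replicate 1 stood apart from the rest: the ribosomal precursor *Rn45s* took 24.7% of its counts, against 12% in EV RV replicate 2 and 10.3% and 7.14% in the Tox RV libraries. The CD4 T cell markers *Cd4*, *Cd3d*, *Cd3e*, *Cd3g*, *Cd28* and *Lck* summed to between 1562 and 2184 CPM (counts per 1000000, TMM-scaled), CD8 markers to at most 4.77 CPM, B cell markers to at most 1.62 CPM and myeloid markers to at most 1.4 CPM. NK cell markers summed to 50.9 and 12.4 CPM in the EV RV libraries and to 27.4 and 6.84 CPM in Tox RV. Of these markers *Ncr1* was at 0 in all 4 libraries. The sum was higher in both libraries numbered 1, and its part in the results was not tested.

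All 10 subunit genes were expressed in every library, with 553 to 9722 counts each, and all entered the test of Tox RV against EV RV. None passed an adjusted p of 0.05 in edgeR's quasi-likelihood test over 14143 genes, where the share of all genes called was 0%. At an unadjusted p of 0.05 the test called 1 member, *Brpf3*, against 3.62% of all genes, and DESeq2 called the same number of members unadjusted and 0 after adjustment. Under scaling by library totals the unadjusted edgeR count was 0 members, against 465 of the 14143 genes. Of the 10 log2 fold changes 4 were above 0 and 6 were below, with a median of -0.03 against 0.00 over all genes tested. Scaling by library totals moved the median of all genes to 0.12 and the split to 8 above 0 and 2 below, but 6 of the 10 members lay below the median of all genes under both scalings. In limma on log2(TPM + 1), where that median was -0.04, the split was 2 and 8, and 7 members lay below the median. This lean was not kept in every fit. In DESeq2, where the median of all genes was -0.05, the split was 4 and 6, and 3 members lay below that median. Without the filter on low counts, where it was -0.03, the number below was also 3. The medians of these 2 fits were over 19286 genes, a larger set than the 14143 of the main fit. Without EV RV replicate 1 the split was 5 and 5, with a median of -0.01. The median size without sign was 0.05 in the members and 0.21 over all genes. These medians were not matched in abundance, as the members lay between percentiles 47.1 and 90.4 of mean CPM. Because these were bulk samples, fewer cells of a type and less RNA per cell cannot be told apart.

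The level of each subunit gene was compared in TPM, which is per transcript length. *Brd1* was the highest at a mean of 41.95 TPM over the 4 libraries, followed by *Kat7* at 30.33, *Brpf1* at 28.4 and *Jade2* at 28.12 TPM. *Meaf6* at 22.34, *Ing5* at 21.41 and *Ing4* at 20.89 TPM formed the next level, then came *Jade1* at 14.77 TPM. *Brpf3* at 7.465 and *Jade3* at 6.965 TPM were the least abundant. The range of *Brd1* over libraries lay wholly above that of *Kat7*, the range of *Jade2* above that of *Meaf6*, the range of *Ing4* above that of *Jade1*, and the range of *Jade1* above that of *Brpf3*. All other neighbours in the order overlapped, and *Brpf3* was below *Jade3* in 2 of the 4 libraries.

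**Figure D1:**
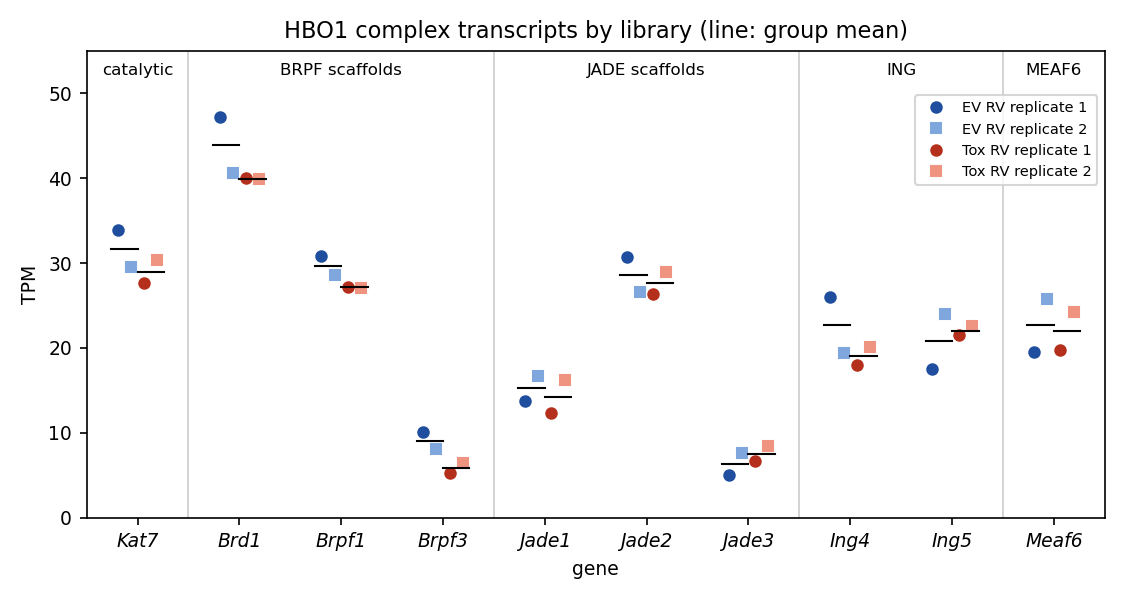
TPM (vertical axis) of the 10 subunit genes (horizontal axis, ordered by role) in each of the 4 libraries, with a line at the mean of the 2 libraries of a group. Brpf3 lies at 10.05 and 8.09 TPM in EV RV, against 5.28 and 6.44 TPM in Tox RV, while for Kat7, all JADE genes, both ING genes and Meaf6 the points of the groups overlap.

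*Kat7*, which carries the acetyltransferase activity, lies at chr11:95271853-95310246 in GRCm38.p6. The bases just upstream of its start are shown as those of the catalytic subunit, with those of *Brpf3*, the member with the largest difference. Both come from RefSeq on GRCm38.p6 and read 5′ to 3′ on the strand of the gene, *Kat7* from chr11:95310247-95310496 on the minus strand and *Brpf3* from chr17:28800876-28801125 on the plus strand. Capitals mark matches to any of the motifs searched on both strands, which were TGANTCA (AP-1), CCGGAAG (ETS) and GGGCGG (SP).
Kat7: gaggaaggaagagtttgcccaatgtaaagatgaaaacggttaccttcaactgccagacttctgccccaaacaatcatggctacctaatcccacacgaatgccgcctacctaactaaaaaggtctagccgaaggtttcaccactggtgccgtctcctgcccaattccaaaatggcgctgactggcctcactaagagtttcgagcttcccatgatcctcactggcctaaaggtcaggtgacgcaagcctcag
Brpf3: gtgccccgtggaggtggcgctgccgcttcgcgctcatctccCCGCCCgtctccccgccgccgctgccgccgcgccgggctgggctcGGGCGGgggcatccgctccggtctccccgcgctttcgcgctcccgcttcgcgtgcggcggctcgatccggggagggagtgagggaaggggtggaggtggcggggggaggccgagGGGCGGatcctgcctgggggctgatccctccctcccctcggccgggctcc
The *Kat7* window held 8 CpG dinucleotides, a GC content of 50.8% and no match. The *Brpf3* window held 34 CpG dinucleotides, a GC content of 78.8% and 3 matches, all to the SP letters. An entry was found for 9 of the 10 genes (none for *Jade2*), 12 windows in all because *Jade1* has 4. The SP letters were in 10 of these 12 windows and in 32.7% of 32851 windows of the same length over all genes, the ETS letters in 4 and in 6.91%, and the AP-1 letters in 0 and in 6.75%. The median CpG count was 20 in the members' windows and 6 over all windows. All 4 *Jade1* windows held the SP letters, so the windows are not independent. The windows over all genes were not matched to those of the members in CpG count or expression. These are matches of letters and not measured sites.

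*Kat7* was measured at 33.85 TPM in EV RV replicate 1 and 29.51 TPM in EV RV replicate 2, against 27.64 and 30.31 TPM in Tox RV. EV RV replicate 1 was the highest library and the groups overlapped. In TMM-scaled CPM, on which the test was run, the means were 112.3 ± 6.77 in EV RV, against 108.9 ± 7.04 in Tox RV (SD, n = 2). Tox RV differed from EV RV by a log2 fold change of -0.04 (SE 0.17, 95% interval -0.45 to 0.37), with an edgeR adjusted p of 0.967. On the linear scale the interval ran from 0.731-fold to 1.29-fold. Without EV RV replicate 1 the value was 0.01. Under scaling by library totals it was 0.08, which is -0.04 relative to the median of all genes.

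The BRPF scaffolds tie KAT7 to histone H3 and also serve the related enzymes KAT6A and KAT6B. *Brd1*, at chr15:88687034-88734228, had 47.25 and 40.66 TPM in EV RV, against 40 and 39.87 TPM in Tox RV. *Brpf1*, at chr6:113306863-113324862, had 30.78 and 28.55 TPM in EV RV, against 27.23 and 27.03 TPM in Tox RV. In both genes the EV RV libraries were above the Tox RV libraries in TPM, with EV RV replicate 1 the highest. For *Brd1* the order did not hold in CPM, where EV RV replicate 2 (127.7 CPM) was below both Tox RV libraries (129.7 and 129.2 CPM). The log2 fold change of *Brd1* was -0.05 (SE 0.16, 95% interval -0.45 to 0.35, edgeR adjusted p 0.953). That of *Brpf1* was -0.05 (SE 0.16, 95% interval -0.44 to 0.34, edgeR adjusted p 0.960). Relative to the median of all genes, scaling by library totals gave -0.05 for each.

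*Brpf3*, the scaffold tied to acetylation of histone H3 at replication origins, lies at chr17:28801126-28838789 and was the member with the largest difference. It was measured at 10.05 and 8.09 TPM in EV RV, against 5.28 and 6.44 TPM in Tox RV. Both Tox RV libraries were below both EV RV libraries, and the groups did not overlap in TPM, in TMM-scaled CPM or in CPM scaled by library totals. In TMM-scaled CPM the means were 32.34 ± 3.77 in EV RV, against 22.18 ± 3.10 in Tox RV (SD, n = 2). The fitted log2 fold change was -0.54 (SE 0.20, 95% interval -1.03 to -0.06), which is 0.686-fold. Its unadjusted edgeR p was 0.0346, position 327 among 14143 genes, and its adjusted p was 0.897, so it did not pass. Under scaling by library totals the fitted value was -0.41 (edgeR unadjusted p 0.0968, adjusted p 0.83). Without EV RV replicate 1 it was -0.43, and over the 4 fits with 1 library left out it ranged from -0.69 to -0.42.

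Groups that did not overlap in CPM were found for 2 of the 10 members, *Brpf1* and *Brpf3*, both with Tox RV lower. Over all genes tested 36% did not overlap in either direction, and 17.4% had Tox RV lower. In TPM 3 members did not overlap, *Brd1* being the addition, all with Tox RV lower, against 34.7% of all genes in either direction and 23.2% with Tox RV lower. In CPM scaled by library totals 3 members did not overlap, *Brpf3* with Tox RV lower and *Brd1* and *Jade2* with Tox RV higher, against 39% of all genes in either direction, 11.4% with Tox RV lower and 27.5% with Tox RV higher. *Brpf3* was thus the member whose groups stayed apart, in the same direction, under each of these scalings. The scalings express the same 4 libraries, and the share of all genes that stayed apart under each of them was not computed. *Rn45s* made up 3.48% and 1.41% of the TPM in EV RV, against 1.16% and 0.784% in Tox RV, and in TPM computed without it the groups again did not overlap for *Brd1*, *Brpf1* and *Brpf3*, with Tox RV lower, as in 25.7% of all genes.

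**Figure D2:**
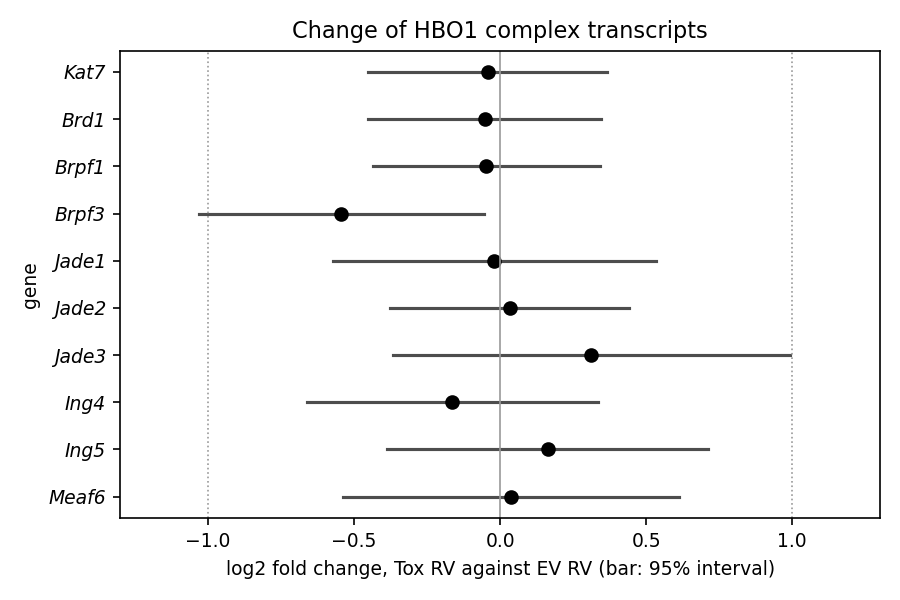
Log2 fold change of Tox RV against EV RV (horizontal axis) for each subunit gene (vertical axis), as points with bars for the 95% interval, and dotted lines at a 2-fold change in either direction. The bars of 9 genes cross 0, and that of Brpf3 runs from -1.03 to -0.06.

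The JADE scaffolds direct KAT7 to histone H4. *Jade2*, at chr11:51813448-51859011, was the most abundant of the JADE genes, at 30.66 and 26.59 TPM in EV RV, against 26.35 and 28.9 TPM in Tox RV. *Jade1*, at chr3:41555734-41616864, was measured at 13.78 and 16.76 TPM in EV RV, against 12.31 and 16.23 TPM in Tox RV. *Jade3*, on the X chromosome at chrX:20425312-20519939, was measured at 5.1 and 7.67 TPM in EV RV, against 6.66 and 8.43 TPM in Tox RV. The groups overlapped in all of them, and for *Jade1* and *Jade3* the library numbered 1 was the lower one in each group. The log2 fold change was 0.03 (SE 0.17) for *Jade2* and -0.02 (SE 0.22) for *Jade1*, with edgeR adjusted p values of 0.974 and 0.991. For *Jade3* it was 0.31 (SE 0.28, 95% interval -0.37 to 0.99, edgeR adjusted p 0.897), the highest value among the members. The *Jade3* value rested on 1 library, as it was 0.01 once EV RV replicate 1 was left out, and the highest value with a library left out was 0.68.

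ING4 and ING5 are the alternative histone readers of the complex. *Ing4*, at chr6:125039848-125049265, was measured at 25.95 and 19.46 TPM in EV RV, against 18.05 and 20.09 TPM in Tox RV. *Ing5*, at chr1:93803926-93822101, was measured at 17.56 and 23.97 TPM in EV RV, against 21.53 and 22.57 TPM in Tox RV. EV RV replicate 1 held the highest *Ing4* value and the lowest *Ing5* value of the 4 libraries, and the groups overlapped for both genes. A log2 fold change of -0.16 (SE 0.20, edgeR adjusted p 0.905) was fitted for *Ing4* and of 0.16 (SE 0.22, edgeR adjusted p 0.910) for *Ing5*. Without EV RV replicate 1 these became 0.01 and -0.08.

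*Meaf6*, at chr4:125085113-125113238, encodes a small subunit that the KAT6A, KAT6B and TIP60 complexes also hold. It was measured at 19.54 and 25.81 TPM in EV RV, against 19.74 and 24.28 TPM in Tox RV. The library numbered 1 was the lower one in each group, and the groups overlapped. Its log2 fold change was 0.04 (SE 0.23, 95% interval -0.54 to 0.61), with an edgeR adjusted p of 0.981.

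The intervals show how far a change of these transcripts could be seen with 2 libraries a group. For 9 of the 10 members the 95% interval of the fold change included 1, and for 9 it lay within a 2-fold change in either direction. It lay within 1.5-fold for 5 members, and its reach to either side ranged from 0.39 to 0.68 on the log2 scale. The absence of a call does not show that the levels were equal. The EV RV libraries differed from each other by a median of 0.29 on the log2 CPM scale over the members and 0.38 over all genes, and the Tox RV libraries by 0.14 and 0.17. For 8 of the 10 members the group difference was smaller than the difference between the EV RV libraries.

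Because the scaffolds and the ING readers replace each other in the complex, the share of each gene in the summed TPM of its kind was computed, a quantity that does not depend on library scaling. *Brd1* made up 53.6% and 52.6% of the BRPF transcripts in EV RV, against 55.2% and 54.4% in Tox RV. *Brpf1* made up 34.9% and 36.9% in EV RV, against 37.6% and 36.9% in Tox RV. The share of *Brpf3* was 11.4% and 10.5% in EV RV, against 7.28% and 8.78% in Tox RV. The groups did not overlap for *Brd1* and *Brpf3*, and they overlapped for *Brpf1*. The shares of a library sum to a fixed total, so those of *Brd1* and *Brpf3* are not independent. In TMM-scaled CPM the groups overlapped for *Brd1*. For *Brpf3* the mean share was 10.9% ± 0.67 against 8.03% ± 1.06 (SD, n = 2), and the two-sided exact permutation p was 0.333, the smallest that 2 libraries against 2 can give.

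Among the JADE transcripts *Jade2* held 61.9% and 52.1% in EV RV, against 58.1% and 54% in Tox RV. *Jade1* held 27.8% and 32.8% in EV RV, against 27.2% and 30.3% in Tox RV, and *Jade3* held 10.3% and 15% in EV RV, against 14.7% and 15.7% in Tox RV. The groups overlapped for each. *Ing5* made up 40.4% of the *Ing4* and *Ing5* transcripts in EV RV replicate 1 and 55.2% in EV RV replicate 2, against 54.4% and 52.9% in Tox RV, so that *Ing4* was the more abundant gene in EV RV replicate 1 alone. The difference in the *Ing5* share, 5.88 percentage points, was -1.54 without EV RV replicate 1 and 13.29 without EV RV replicate 2. Of all scaffold transcripts, BRPF genes made up 64% and 60.2% in EV RV, against 61.5% and 57.8% in Tox RV, and the groups overlapped. In all 4 libraries transcripts of the H3-directed scaffolds exceeded those of the H4-directed scaffolds.

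**Figure D3:**
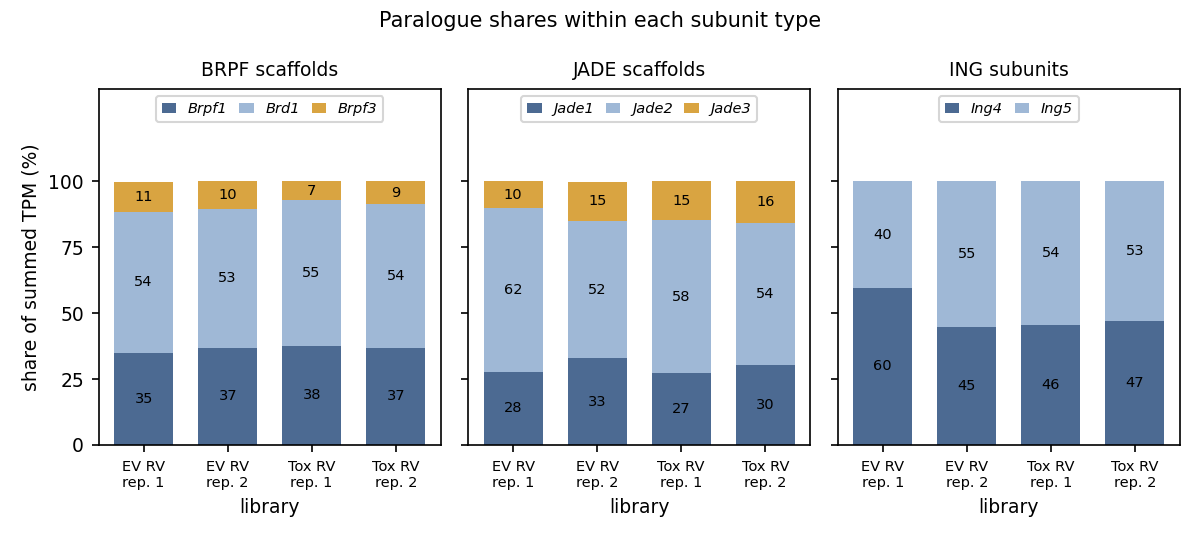
Share of summed TPM (vertical axis, %) held by each paralogue among the BRPF scaffolds, the JADE scaffolds and the ING subunits in each of the 4 libraries (horizontal axis), as stacked bars with the rounded share written in each segment. The Brpf3 segment is 11.4% and 10.5% in EV RV, against 7.28% and 8.78% in Tox RV, and the Ing4 segment is 59.6% in EV RV replicate 1 against 44.8% to 47.1% elsewhere.

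The summed transcripts of each kind were then set against *Kat7*. BRPF transcripts amounted to 2.6 and 2.62 times the *Kat7* TPM in EV RV, against 2.62 and 2.42 times in Tox RV. JADE transcripts amounted to 1.46 and 1.73 times in EV RV, against 1.64 and 1.77 times in Tox RV. For ING transcripts the ratios were 1.29 and 1.47 in EV RV, against 1.43 and 1.41 in Tox RV. *Meaf6* was the only kind below *Kat7*, at 0.577 and 0.875 times in EV RV, against 0.714 and 0.801 times in Tox RV. The groups overlapped for each of these ratios, and EV RV replicate 1 had the lowest JADE, ING and *Meaf6* ratios. RNA ratios do not give the ratios of the proteins. The BRPF scaffolds, ING5 and MEAF6 also serve KAT6A and KAT6B, so these ratios do not describe the HBO1 complex alone.

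Transcript use was followed through the mean transcript length of each gene, which the authors' quantification weights by abundance. It can vary for the 5 genes with more than 1 transcript in the files, *Kat7*, *Brpf1*, *Jade1*, *Jade3* and *Meaf6*. The largest spread over the 4 libraries was in *Meaf6*, from 1256.47 to 1275.25 bases, or 1.48% of the mean, followed by *Brpf1* with 0.632%. The groups overlapped for all 5 genes. Exons of *Brpf1*, *Brpf3*, *Jade1* and *Ing4* overlap other annotated genes that were not quantified, and reads of the overlapping transcripts could not be told apart from theirs. For *Brpf1*, *Brpf3* and *Jade1* the overlapping genes lie on the opposite strand, and the use of strand in counting was not stated. For *Ing4* the overlapping gene lies on the same strand and shares 1855 exon bases, so strand would not separate its reads.

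*Kat6a* and *Kat6b* encode the acetyltransferases that share the BRPF scaffolds, ING5 and MEAF6 with KAT7. *Kat6a* was measured at 35.5 and 22.7 TPM in EV RV, against 22.2 and 20.4 TPM in Tox RV, and *Kat6b* at 6.16 and 4.83 TPM in EV RV, against 4.94 and 4.25 TPM in Tox RV. EV RV replicate 1 was the highest library for both. The log2 fold change of *Kat6a* was -0.36 (SE 0.23, edgeR adjusted p 0.897), and without EV RV replicate 1 it was -0.05. *Kat7* was above *Kat6b* in all 4 libraries and above *Kat6a* in 3 of them, EV RV replicate 1 being the exception.

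Lists of related genes were read from the same fit, and none of their genes passed either an adjusted or an unadjusted p of 0.05 in edgeR. Among 10 other histone acetyltransferases 1 had a log2 fold change above 0 and 9 had one below, with a median of -0.16 and a range from -0.63 to 0.04. The most abundant was *Hat1*, which acetylates newly made histone H4, at 45.18 and 77.06 TPM in EV RV, against 47.75 and 72.11 TPM in Tox RV. The lowest values belonged to the coactivators *Crebbp* (-0.63) and *Ep300* (-0.55), named after their values were seen. *Crebbp* stood at 58.93 TPM in EV RV replicate 1 and between 25.44 and 27.55 TPM in the other libraries. Without EV RV replicate 1 the split was again 1 and 9, with a median of -0.04. Scaling by library totals gave 4 above 0 and 6 below, and 9 of the 10 lay below the median of all genes under both scalings.

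The TIP60 complex is built around KAT5, another MYST enzyme. Of its 17 genes 11 had a log2 fold change above 0 and 6 below, with a median of 0.10. Its most abundant gene was *Morf4l2*, of the MRG family, at 101 and 162.8 TPM in EV RV, against 131 and 154.5 TPM in Tox RV. Without EV RV replicate 1 the split was 8 to 9 and the median -0.03. Under scaling by library totals it was 14 to 3, with 6 of the 17 below the median of all genes, the number also found with TMM scaling. The other ING genes *Ing1*, *Ing2* and *Ing3* had log2 fold changes of 0.09, -0.03 and 0.26, and *Ing1* was the most abundant of them, at 23.46 and 29.34 TPM in EV RV, against 24.19 and 30.1 TPM in Tox RV. *Kat5* and *Ing3* stand in 2 lists each.

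Replication licensing, in which HBO1 acts together with ORC and CDT1, was represented by 15 genes. Of these 10 had a log2 fold change above 0 and 5 below, with a median of 0.05 and a range from -0.14 to 0.20, while limma on log2(TPM + 1) gave 6 and 9 with a median of -0.04. Scaling by library totals gave 13 and 2, with 6 of the 15 below the median of all genes. The groups overlapped in CPM for all 15, while 36% of all genes tested had groups that did not overlap. The 15 genes are not independent of each other, so this count is a description only. The most abundant was *Mcm6*, a subunit of the replicative helicase, at 210.2 and 257.6 TPM in EV RV, against 181.1 and 250.6 TPM in Tox RV. The library numbered 1 was the lower one in each group. The direction of the list followed single libraries: without EV RV replicate 1 the split was 1 above 0 and 14 below with a median of -0.22, without EV RV replicate 2 it was 14 and 1 with 0.31, without Tox RV replicate 1 it was 15 and 0 with 0.22, and without Tox RV replicate 2 it was 2 and 13 with -0.21.

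**Figure D4:**
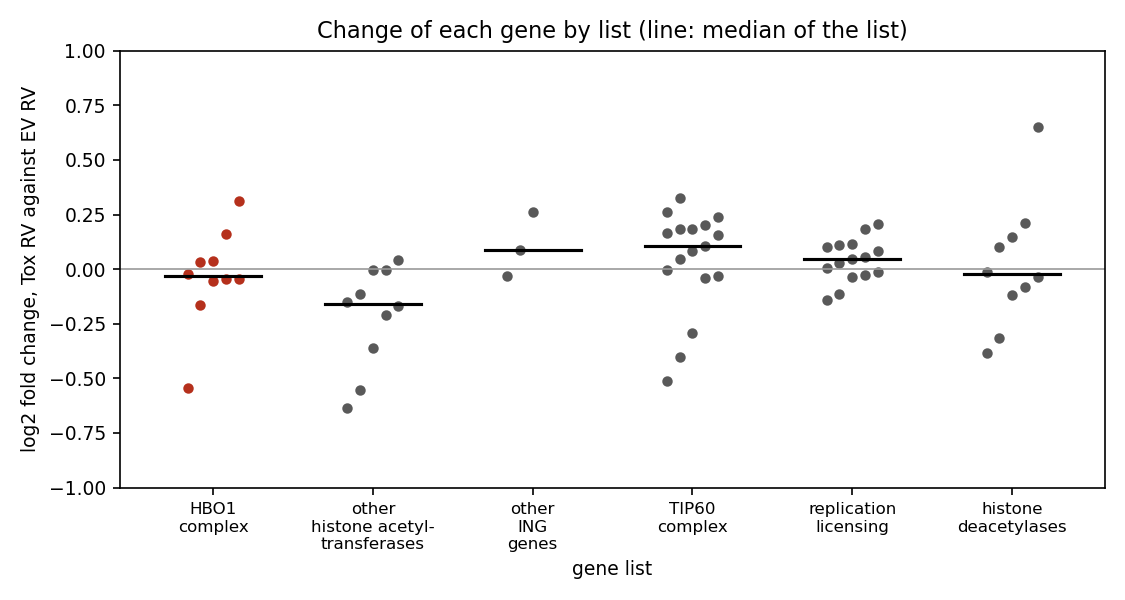
Log2 fold change of Tox RV against EV RV (vertical axis) of each gene tested, by gene list (horizontal axis), with a line at the median of the list. The 10 HBO1 complex genes (red) run from -0.54 for Brpf3 to 0.31 for Jade3 around a median of -0.03, and no gene in any of the lists shown passed an adjusted p of 0.05.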

How the data were processed

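Per the methods, the authors checked reads with fastqc, aligned them with bowtie1 to mm10 transcripts and quantified each library alone with RSEM, whose version is not given in the sources used here. The deposited expected counts are RSEM estimates of fragments per gene, without normalization. The deposited TPM values sum to 1000000 in each library, and the deposited FPKM values, which were not analysed here, are per kilobase and per 1000000 fragments. RSEM's abundance-weighted transcript lengths were used as deposited. A deposited table of the series is named TPM, but its columns sum to 461343 to 515117, so its values were taken as the authors' RPKM, an alternative for shares only.

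Rounded expected counts entered edgeR 4.0.16 under R 4.3.3 (filterByExpr with a minimum count of 10, TMM scaling, glmQLFit with the legacy dispersion method, glmQLFTest, 2 libraries against 2), which tested 14143 genes with Benjamini-Hochberg adjustment. The common dispersion gave a biological coefficient of variation of 0.232 (prior degrees of freedom 3.77). Standard errors and 95% intervals were taken from the quasi-likelihood F statistic. The step was also run on counts simulated independently for each gene and library. Such counts hold no library that stands apart as EV RV replicate 1 did, so that case was not tested. Levels between genes were compared in TPM, and shares and ratios by two-sided exact permutation tests. The precision of every value was limited by 2 libraries a group.

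The genes named are all 10 members, *Tox*, *Rn45s*, *Kat6a*, *Kat6b* and, from each list, genes with an unadjusted p under 0.05 and the most abundant gene by mean TPM. *Crebbp*, *Ep300*, *Hdac1*, *Hdac4*, *Hdac9*, *Hdac11*, *Kat5*, *Ing2* and *Ing3* fall outside this rule and were named after their values were seen. Members and lists were chosen with earlier results of these data known. *Kat14* is listed under its older symbol *Csrp2bp*. Alternatives were DESeq2 1.42.0 (the tool of the methods), other scalings, no filter, a replicate block, limma 3.58.1 on log2(TPM + 1) and log2(TPM + 0.1) for genes with a mean TPM of at least 1, each library left out, and edgeR's newer dispersion method, the last chosen after seeing the data.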

Additional observations from a re-analysis of the deposited data

How the results depend on the processing

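No HBO1 complex gene passed an adjusted p of 0.05 in any of the 12 alternatives. Over all genes the count called was 0 with edgeR, 22 with DESeq2, 22 without the filter on low counts, 16 with the replicate block, and 1 to 393 with 1 library left out (1 without EV RV replicate 1, 393 without EV RV replicate 2, 10 without Tox RV replicate 1 and 22 without Tox RV replicate 2). Median-of-ratios scaling, library totals, both limma fits and the newer edgeR dispersion method gave 0. With an arm of 1 library, that library is assumed to vary like the other group. The cause of these differences was not tested.

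Same-numbered libraries had a correlation of deviations of 0.302, but 2 pairs cannot show pairing, so the replicate numbers were treated as names only. With the replicate block the log2 fold change of *Brpf3* was -0.55 (edgeR adjusted p 0.46), and no member's call changed.

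Of 120 log2 fold changes over the members and alternatives, 101 kept their direction and 19 did not. Library totals, which moved the median of all genes by 0.12, reversed *Kat7* (0.08), *Brd1* (0.07), *Brpf1* (0.08) and *Jade1* (0.09), all of which stayed below that median, and the limma fits reversed *Jade2* (-0.05 in both) and *Meaf6* (-0.04 in both). With 1 library left out the log2 fold change ranged from -0.11 to 0.01 for *Kat7*, from -0.12 to 0.01 for *Brd1*, from -0.23 to 0.17 for *Jade1*, from -0.03 to 0.09 for *Jade2*, from -0.33 to 0.01 for *Ing4*, from -0.08 to 0.45 for *Ing5* and from -0.18 to 0.29 for *Meaf6*. *Brpf3* and *Jade3* kept their direction in all 12. With 1 library left out, 3 of 8 differences in share changed sign (*Ing5* from -1.54 to 13.29, *Jade1* from -4.12 to 0.92 and *Jade2* from -5.84 to 3.93 percentage points), as did 4 of 5 differences in transcript length, *Brpf1* the widest (from -19.1 to 11.0 bases). The other alternatives for shares and lengths changed 0 signs. *Tox* passed an adjusted p of 0.05 in DESeq2, without the filter, with the replicate block and with any library left out.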

Other observations

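Histone deacetylases, a family that includes enzymes removing acetyl marks from histones, were also read from the fit. Of 11 genes 10 were tested, *Hdac9* being too low, and 0 passed an adjusted p of 0.05 in edgeR, with 0 at an unadjusted p of 0.05. The log2 fold change was above 0 for 4 and below 0 for 6, with a median of -0.02 and a range from -0.38 to 0.65. The highest value was that of *Hdac11*, a gene near the floor at 0.05 to 0.21 TPM. The most abundant was *Hdac2*, a class I enzyme, at 51.41 and 72.09 TPM in EV RV and 65.13 and 70.62 TPM in Tox RV (log2 fold change 0.21, SE 0.23), with EV RV replicate 1 the lowest library. The groups did not overlap in CPM for *Hdac1* and *Hdac4*, named after their values were seen, both with Tox RV lower. That is 2 of 10 genes, against 36% of all genes tested in either direction and 17.4% with Tox RV lower. *Hdac1* stood at 77.9 and 55.16 TPM in EV RV and 49.93 and 50.72 TPM in Tox RV, a log2 fold change of -0.31 that was -0.09 without EV RV replicate 1. *Hdac4* stood at 29.9 and 20.76 TPM in EV RV and 18.75 and 17.73 TPM in Tox RV, a log2 fold change of -0.38 that was -0.15 without EV RV replicate 1. Scaling by library totals, which moved the median of all genes to 0.12, gave 8 above 0 and 2 below, and 6 of the 10 lay below that median under both scalings.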
